A study of Mus musculus with 6 samples.

Results

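Red blood cells are built around haemoglobin, and the 9 genes described here cover its embryonic production and the machinery of the red cell. They were taken as the rows whose gene name matched a fixed list, and all 9 were found among the 46078 genes of the deposited count tables. The globins were Hbb-y and Hbb-bh1, beta-like globin genes of the embryo, Hba-x, the embryonic zeta globin gene, and Hba-a1, an alpha globin gene used in the embryo and the adult. The others were Gata1 and Klf1, transcription factors of the red-cell lineage, Epor, the erythropoietin receptor, Alas2, the erythroid enzyme that starts haem synthesis, and Slc4a1, the band 3 anion exchanger of the red-cell membrane.

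In the mouse the first red cells, called primitive erythroid cells, arise from mesoderm in the blood islands of the yolk sac while gastrulation is under way. GATA1 and KLF1 bind globin and haem genes and switch them on. As these cells mature, Hbb-bh1 gives way in part to Hbb-y, and Hba-x to the alpha globin genes. Erythropoietin acts through its receptor on the survival and growth of the precursors.

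The measurements came from cultured explants of mesoderm dissected from mouse embryos at E7.25, when gastrulation is in progress, with the extraembryonic part above the amnion cut away. There were 2 libraries in each of 3 groups: explants given a compound named PD in the labels at 1 µM for 16 h, explants given 10 µM YZ9 for 16 h, and control explants. YZ9 is a compound known to inhibit PFKFB3, whose product stimulates glycolysis. All explants attached to fibronectin for 3 to 4 h first and were cultured for 27 h per the growth protocol, or 24 h per the series description, and the labels do not say whether controls received a vehicle. All groups are labelled wild type, where the series description names TCF/Lef:H2B-GFP reporter mice. Whether a library held 1 explant or several pooled ones is not stated.

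Promoters are shown for the globin and haem genes on which the results turn, from RefSeq on the build GRCm38.p6, each with 250 bases before and 50 bases after the transcription start, written 5′ to 3′ along the gene. Hbb-y lies on the reverse strand at chr7:103853158-103853457, Hba-x on the forward strand at chr11:32276350-32276649, Hba-a1 on the forward strand at chr11:32283422-32283721, and Alas2 on the forward strand at chrX:150547167-150547466. Capitals mark matches on either strand to a GATA motif (AGATAA or else TGATAA, and with a final G either AGATAG or else TGATAG), and to the motifs CACCC, also CCAAT and also TATAA, and adjoining matches run together.
Hbb-y: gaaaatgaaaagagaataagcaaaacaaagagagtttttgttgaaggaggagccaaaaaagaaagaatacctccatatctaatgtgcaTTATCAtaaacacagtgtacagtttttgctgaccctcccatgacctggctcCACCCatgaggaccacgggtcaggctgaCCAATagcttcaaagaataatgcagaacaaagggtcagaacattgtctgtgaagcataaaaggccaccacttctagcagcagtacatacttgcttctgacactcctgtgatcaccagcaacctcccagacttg
Hba-x: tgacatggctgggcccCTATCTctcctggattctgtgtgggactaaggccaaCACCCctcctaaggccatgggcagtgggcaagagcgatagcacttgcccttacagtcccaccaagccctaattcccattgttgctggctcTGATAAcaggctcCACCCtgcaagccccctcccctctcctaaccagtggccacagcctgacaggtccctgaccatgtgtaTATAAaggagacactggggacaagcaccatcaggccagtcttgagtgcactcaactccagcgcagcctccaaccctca
Hba-a1: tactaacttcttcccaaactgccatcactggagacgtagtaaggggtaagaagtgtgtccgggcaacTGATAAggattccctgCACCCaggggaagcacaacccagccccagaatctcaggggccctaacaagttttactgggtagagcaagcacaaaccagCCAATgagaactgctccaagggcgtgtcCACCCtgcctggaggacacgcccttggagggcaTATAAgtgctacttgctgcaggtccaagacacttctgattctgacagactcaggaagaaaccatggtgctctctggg
Alas2: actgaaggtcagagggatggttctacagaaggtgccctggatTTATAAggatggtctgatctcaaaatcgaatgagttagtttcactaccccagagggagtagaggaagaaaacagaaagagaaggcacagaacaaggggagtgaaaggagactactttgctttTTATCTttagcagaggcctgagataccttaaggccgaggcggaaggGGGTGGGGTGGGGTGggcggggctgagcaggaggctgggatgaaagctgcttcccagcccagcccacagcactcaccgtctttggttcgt
Promoters were present for 7 of the 9 members, all except Hbb-bh1 and Slc4a1. A GATA match stood in 6 of these 7 windows, all except that of Gata1, and in 29.76% of all 32851 promoters in the table. CACCC stood in all 7 windows, against 57.52% of all promoters. In Hbb-y the GATA match lay 162 to 157 bases before the start and a CACCC match 111 to 107 bases before it. In Alas2 the GATA match lay 86 to 81 bases before the start. The longer KLF1-type motif CCACACCC, which contains CACCC, stood in 0 of the 7 windows and in 3.562% of all promoters. Its looser form CCNCNCCCN, where N is any base, stood in the windows of Hba-x, Gata1, Alas2 and Epor. It was absent from those of Hbb-y, Hba-a1 and Klf1, and stood in 49.41% of all promoters. These matches describe letters, and binding was not measured.

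On GRCm38, in the GENCODE M21 annotation, the beta-like genes lie on the reverse strand of chromosome 7, Hbb-y at chr7:103851749-103853216 and Hbb-bh1 at chr7:103841637-103843164. The alpha-like genes lie on the forward strand of chromosome 11, Hba-x at chr11:32276400-32278116 and Hba-a1 at chr11:32283511-32284465. Gata1 (chrX:7959260-7978071) and Alas2 (chrX:150547375-150570638) are on the X chromosome, Klf1 is at chr8:84901928-84905291, Epor at chr9:21958897-21963506 and Slc4a1 at chr11:102348824-102366203.

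Total counts were between 21253194 and 27810161 per library, and 15568 genes were tested. Xist and Y-linked counts differed between libraries of a group: PD replicate 2 and YZ9 replicate 2 were female, and PD replicate 1, YZ9 replicate 1 and both controls were male. A PD or YZ9 library therefore had no control of the same sex where it was female, and in those libraries sex and treatment cannot be told apart in a comparison with control. Of 18 mesoderm markers 13 were tested. Bmp4 and Hand1, genes of extraembryonic and lateral mesoderm, had at least 3324 counts in every library, and Vim, an intermediate filament gene, had between 547 and 1282 CPM. The primitive streak and early mesoderm genes T, Tbx6, Mesp1 and Mesp2 had between 0 and 8 counts, and Msgn1 had 0 counts throughout. Eomes, another early mesoderm gene, had 0 counts in both PD libraries, 67 and 281 counts in YZ9, and 185 and 145 counts in controls (adjusted p = 0.106 by edgeR in PD against control). CPM are counts scaled to 1000000 per TMM-scaled library. In bulk RNA, fewer red cells and less RNA per cell cannot be told apart, and the p-values measure only the spread between these libraries, which the labels do not tie to separate embryos or cultures.

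Red-cell RNA differed widely between the 2 libraries of each group. The summed level of the embryonic globins Hbb-y, Hbb-bh1 and Hba-x was 439.98 and 6303 CPM in the PD libraries, 18.3 and 1085 CPM in the YZ9 libraries, and 2370.0 and 7227 CPM in the control libraries. The PD and control ranges overlapped, and both YZ9 libraries lay below both controls. As a share of all counts the sum was 0.0423% and 0.617% in PD, 0.00192% and 0.116% in YZ9, and 0.232% and 0.698% in controls. Means were 3371 ± 4146 CPM in PD, 552 ± 754 CPM in YZ9 and 4799 ± 3435 CPM in control (SD, n = 2 each), so the SD exceeded the mean in both inhibitor groups.

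**Figure D1:**
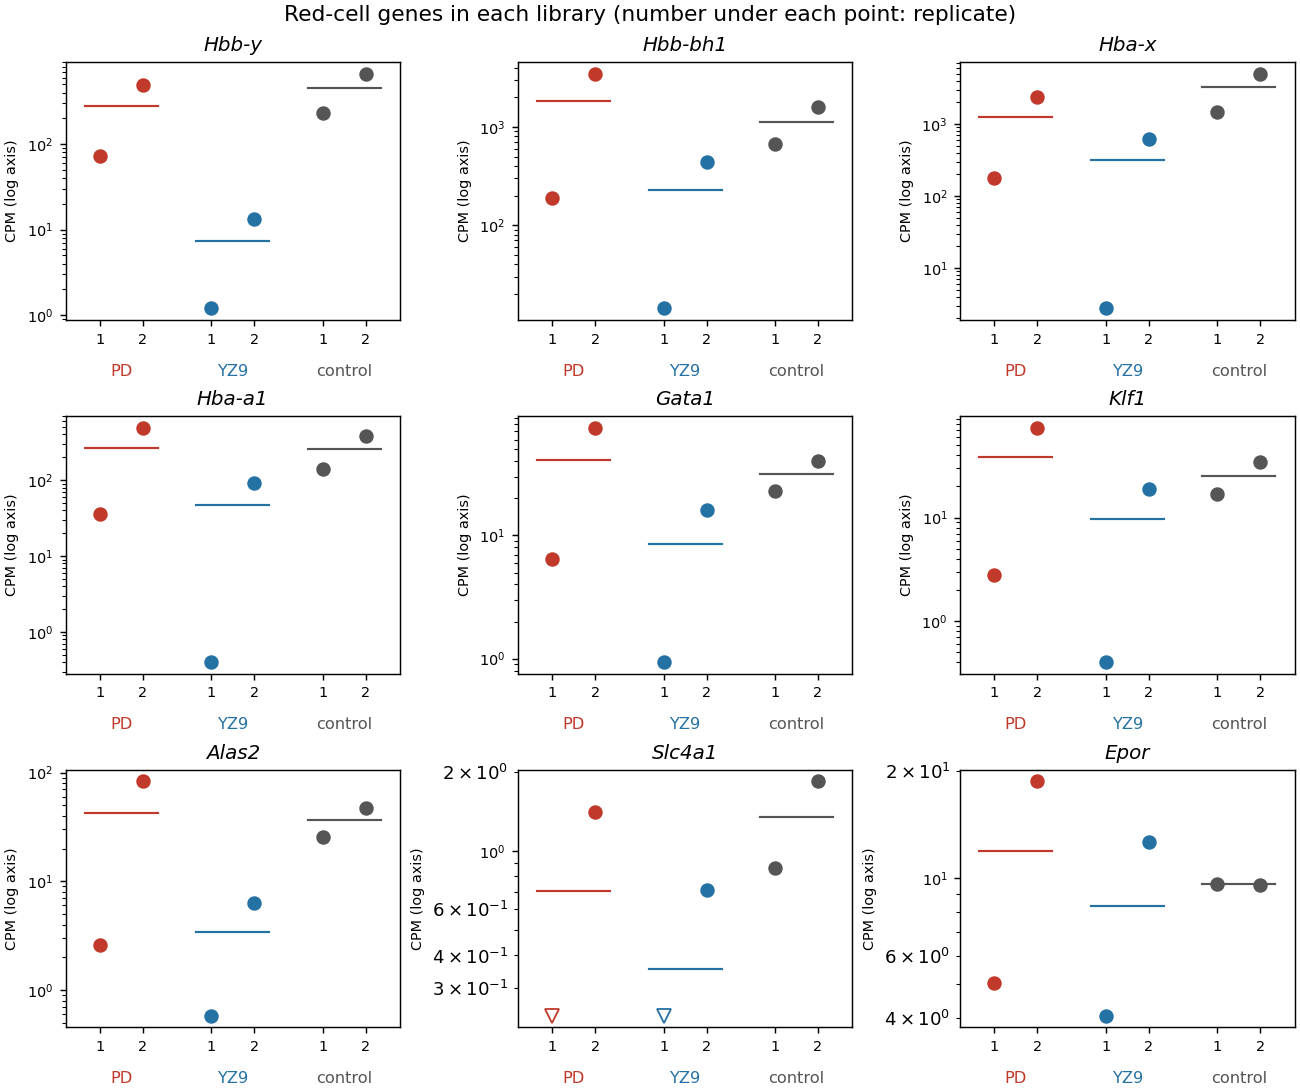
Level of each of the 9 genes in every library, as CPM on a log axis, with replicate 1 and 2 of PD, YZ9 and control from left to right. Points are libraries, lines are group means, and open triangles below the lowest value mark 0 counts (Slc4a1 in PD replicate 1 and YZ9 replicate 1). Replicate 2 lies far above replicate 1 in both inhibitor groups, and YZ9 replicate 1 is at or tied for the lowest value in every panel.

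Among the regulators, Gata1 had 6.49 and 75.3 CPM in PD libraries, 0.940 and 16.2 CPM in YZ9 libraries, and 22.8 and 40.4 CPM in controls. Klf1 had 2.77 and 74.3 CPM in PD, 0.403 and 19.1 CPM in YZ9, and 16.9 and 34.1 CPM in controls. PD replicate 2 was the highest library for both factors, above both controls, and PD replicate 1 lay below both controls. YZ9 did not overlap control for Gata1 and did overlap it for Klf1.

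Epor, whose expression is not restricted to red cells, had the narrowest range of the 9 genes. Its level was 5.03 and 18.7 CPM in PD, 4.07 and 12.6 CPM in YZ9, and 9.59 and 9.55 CPM in controls. The controls were nearly level, and each inhibitor group had 1 library below and 1 above them.

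The globins spanned the widest ranges of the members with counts in every library. Hba-x had 176 and 2343 CPM in PD, 2.77 and 628 CPM in YZ9, and 1477 and 4957 CPM in controls. Its highest library held 1786 times the level of its lowest, which was YZ9 replicate 1 with 62 counts. Hbb-bh1 had 191 and 3473 CPM in PD, 14.3 and 444 CPM in YZ9, and 663 and 1607 CPM in controls, so PD replicate 2 stood above both controls and PD replicate 1 below both.

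Hbb-y had 72.5 and 487 CPM in PD libraries, 1.21 and 13.3 CPM in YZ9 libraries, and 230.4 and 663 CPM in controls. Both YZ9 libraries lay below every PD and control library, which held for no other member. Hba-a1 had 36.1 and 494 CPM in PD, 0.403 and 92.9 CPM in YZ9, and 140.4 and 379 CPM in controls. Of the 50-base windows of its transcripts, 67.54% also occur in Hba-a2, a neighbouring alpha globin gene that had at most 13 counts in any library, so the split between these copies is uncertain.

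Alas2 had 2.61 and 83.2 CPM in PD, 0.582 and 6.27 CPM in YZ9, and 25.4 and 47.6 CPM in controls. PD replicate 2 was again the highest library, and both YZ9 libraries lay below both controls. The library kit does not keep the strand, and 372 exon bases of Alas2 overlap Apex2 and a microRNA gene on the other strand. Apex2, a DNA repair nuclease gene, stayed between 23.9 and 32.5 CPM in all libraries. Slc4a1, a late marker of the red-cell membrane, was close to the detection limit, with 0 and 35 counts in PD, 0 and 21 counts in YZ9, and 23 and 49 counts in controls. Where it had 0 counts it was not detectable at this depth.

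Per kilobase of exon, which allows genes to be compared, Hbb-bh1 had the highest mean level in PD (2989 CPM per kb) and in YZ9 (374 CPM per kb), while Hba-x led in controls (3429.6 CPM per kb, while Hbb-bh1 had 1851 CPM per kb). The lowest mean level in all 3 groups was that of Slc4a1, at 0.144 CPM per kb in PD, 0.0724 in YZ9 and 0.276 in control. For every member the YZ9 mean was the lowest of the 3 group means. PD and control means changed places from gene to gene, and their libraries overlapped for all 9.

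For most members the 2 libraries of a group differed far more than they did for most other genes. On the log2 scale the median difference over the 9 genes was 3.77 in PD (range 1.88 to 4.95), 4.00 in YZ9 (1.61 to 7.78) and 1.03 in controls (0.0050 to 1.75). Over all genes tested the corresponding medians were 0.34 in PD, 0.32 in YZ9 and 0.33 in controls. Replicate 2 was higher for 9 of 9 members in PD, 9 of 9 in YZ9 and 8 of 9 in controls, with Epor the exception. Of all genes tested 50.2%, 49.5% and 49.9% were higher in replicate 2. For Hba-x only 0.0385% of genes tested had as large a difference between the YZ9 libraries, 0.784% had one between the PD libraries and 3.21% had one between the controls. For Epor these shares were 5.94%, 6.47% and 98.9%.

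**Figure D2:**
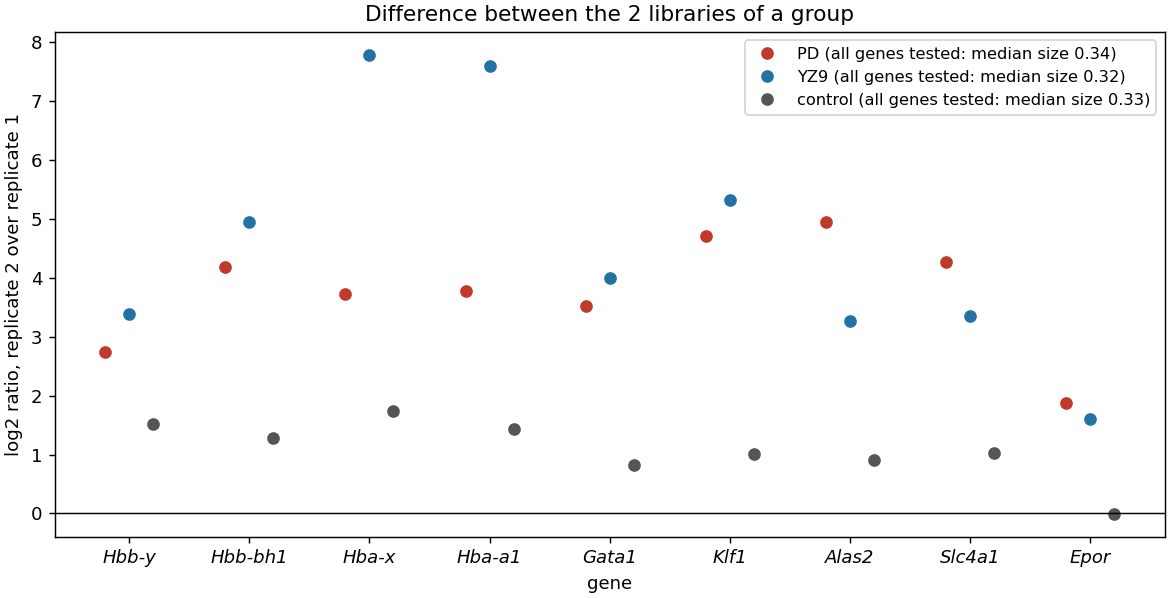
Difference between the 2 libraries of each group for the 9 genes, as the log2 ratio of replicate 2 over replicate 1. Points are PD, YZ9 and control from left to right within a gene, and the legend gives the median size of this difference over all genes tested. PD and YZ9 points lie above 1.6 for every gene, while control points lie between about 0 and 1.75.

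In YZ9 explants set against control, all 9 members had negative log2 fold changes, where 49.8% of all genes did. Of the 9 members 0 passed an adjusted p of 0.05 in edgeR's quasi-likelihood test, where 0.00642% of all genes passed. Hbb-y had the largest fold change, with 7.28 ± 8.58 CPM in YZ9 and 447 ± 306 CPM in controls (SD, n = 2 each), for which the log2 fold change was -5.92 with SE 1.41 (adjusted p = 0.241 by edgeR). Alas2 followed with -3.39 (SE 1.57, adjusted p = 0.473) and Hba-x with -3.35 (SE 2.06, adjusted p = 0.582). The log2 values were -2.47 for Hba-a1, -2.31 for Hbb-bh1, -1.87 for both Gata1 and Slc4a1, -1.38 for Klf1 and -0.19 for Epor. The median of the 9 was -2.31, where the median of all genes tested was 0.00.

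Both YZ9 libraries lay below both controls for 7 of the 9 members, all except Klf1 and Epor, where 24.5% of all genes showed this and 21.1% the reverse. At an unadjusted p under 0.05, 1 of 9 members passed in edgeR, Hbb-y, where 11.3% of all genes did, a share close to that of the members. With DESeq2 1 member passed, again Hbb-y (adjusted p = 0.00286), where 3.33% of all genes passed, and in the authors' deposited table Hbb-y had a log2 fold change of -5.93 with an adjusted p of 0.00135. With limma-trend 0 passed. Without the filter on low counts Hbb-y and Alas2 passed, where 2.11% of all genes passed.

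Within the male libraries alone, YZ9 replicate 1 had a lower CPM than both controls for 9 of 9 members. The fit to these libraries called 7 of 9, all except Slc4a1 and Epor, where 1.12% of all genes passed, with log2 fold changes of -8.51 for Hbb-y, -10.2 for Hba-x and -5.95 for Alas2. With sex as a covariate 5 members passed, Hbb-y, Hbb-bh1, Gata1, Klf1 and Alas2, where 0.784% of all genes passed. Both controls were male, so the sex term came only from replicate 2 against replicate 1 within PD and YZ9. Sex and the difference between replicates cannot be told apart there, so this fit is not separate support beside the male one. Both fits rest on few residual degrees of freedom, and the male fit takes the lone PD and YZ9 libraries to vary as the controls do. Without YZ9 replicate 1 the median of the 9 was -1.35 and Epor turned to 0.41, and without YZ9 replicate 2 the median was -6.30.

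In PD explants set against control, no direction was shared by the 9 members: 6 had positive and 3 negative log2 fold changes. Of the 9, 0 passed an adjusted p of 0.05 in edgeR's quasi-likelihood test, where 0.0964% of all genes passed, 0 had an unadjusted p under 0.05 (10.8% of all genes), and 0 passed with limma-trend, with DESeq2 (4.04% of all genes) or without the filter on low counts (2.71% of all genes). The groups overlapped for all 9 members, where 19.2% of all genes were without overlap higher in PD and 19.5% lower. Hbb-bh1 had 1832 ± 2321 CPM in PD and 1135 ± 667 CPM in controls (log2 fold change 0.69, SE 1.58, adjusted p = 0.949), and Hba-x had 1260 ± 1532 CPM in PD and 3217 ± 2461 CPM in controls (-1.35, SE 1.91, adjusted p = 0.901). Gata1 had 40.9 ± 48.6 CPM in PD and 31.6 ± 12.5 CPM in controls (0.37, SE 1.31, adjusted p = 0.968). The remaining log2 values were -0.68 for Hbb-y, 0.03 for Hba-a1, 0.59 for Klf1, 0.23 for Alas2, -0.94 for Slc4a1 and 0.31 for Epor.

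The PD direction turned with the library left out. Without PD replicate 2 all 9 were negative, with a median of -2.85, and without PD replicate 1 8 of 9 were positive, with a median of 0.97. Within the male libraries PD replicate 1 had a lower CPM than both controls for 9 of 9 members, and the male fit called 7, all except Slc4a1 and Epor, where 2.63% of all genes passed. There the log2 fold changes were -2.63 for Hbb-y, -4.19 for Hba-x and -3.80 for Alas2. With sex as a covariate 1 member passed, Klf1, where 0.797% of all genes passed, and all 9 were negative. The limit of the sex term given for YZ9 holds here too. The female PD library had a higher CPM than both controls for Hbb-bh1, Hba-a1, Gata1, Klf1, Alas2 and Epor, and there was no female control to set it against.

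**Figure D3:**
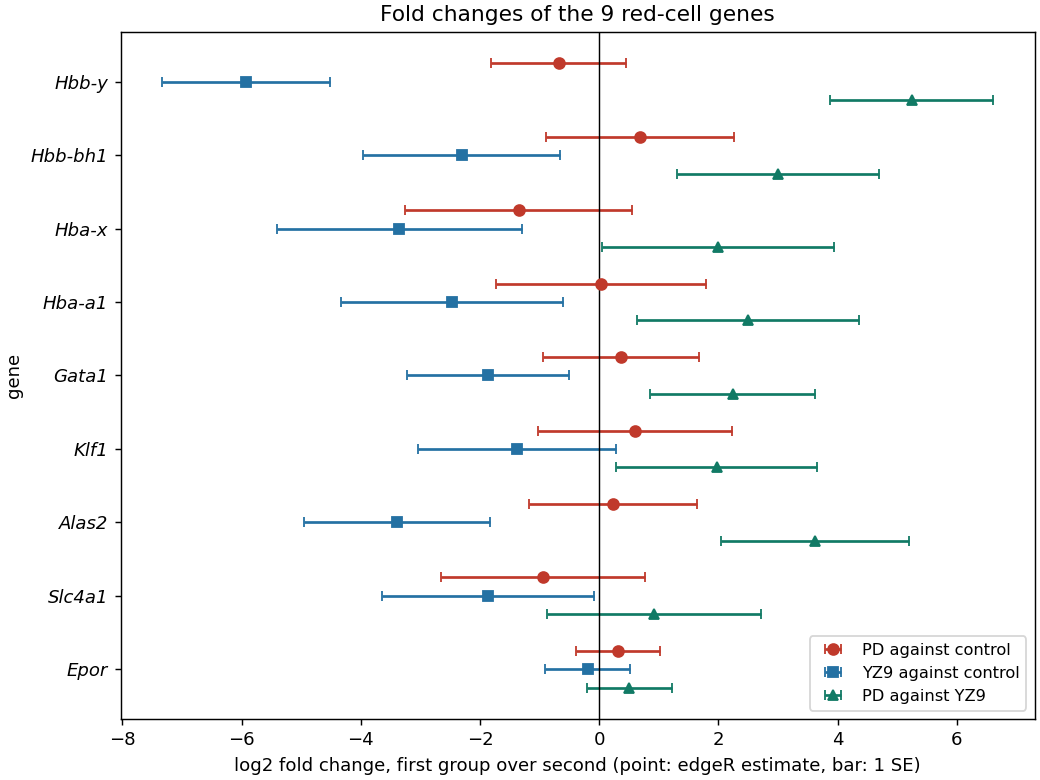
Log2 fold change of each of the 9 genes in PD against control, YZ9 against control and PD against YZ9, with points for the edgeR estimate and bars of 1 SE. Every YZ9 against control estimate is below 0 and every PD against YZ9 estimate above 0, and the PD against control estimates stand on both sides.

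Set against each other, PD had higher fitted levels than YZ9 for 9 of 9 members, with a median log2 fold change of 2.24, where the median of all genes was -0.00. Again 0 of 9 passed in edgeR's quasi-likelihood test, where 0.122% of all genes passed, 1 had an unadjusted p under 0.05 (11.5% of all genes), DESeq2 called 1 (3.4% of all genes) and limma-trend 0. That member was Hbb-y in both cases, whose log2 value in edgeR was 5.24 (SE 1.37, adjusted p = 0.266) with an adjusted p of 0.0111 in DESeq2. It was also the only one of the 9 whose PD libraries both lay above both YZ9 libraries, where 21.6% of all genes did and 21.4% did the reverse. Without the filter on low counts 3 members passed, Hbb-y, Hbb-bh1 and Alas2, where 2.29% of all genes passed. In the male libraries alone 4 passed, the globins Hbb-y, Hbb-bh1, Hba-x and Hba-a1, where 0.811% of all genes passed, and with sex as a covariate Hbb-y, Hbb-bh1, Gata1 and Alas2 passed, where 1.11% did. Without PD replicate 2, 8 of the 9 were lower in PD, with a median of -0.42. Both inhibitors were compared with the same 2 controls, so those 2 comparisons are not independent of each other.

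Ratios between members within a library do not depend on its scaling, and these were computed for 11 pairs chosen after the values were seen. The count of Hba-x over that of Hba-a1 was 4.88 and 4.75 in PD, 6.89 and 6.76 in YZ9, and 10.5 and 13.1 in controls. The libraries of a group lay close together and the 3 groups did not overlap, although the summed globin level in YZ9 differed 59.4-fold between its libraries. An exact two-sided permutation test of 2 against 2 cannot give a p below 0.333, which was its value in all 3 comparisons of this ratio. As a share of alpha-like globin counts, Hba-x made up 83.0% (95% exact binomial interval 82.0 to 84.0) and 82.6% (82.3 to 82.9) in PD, 87.3% (77.3 to 94.0) and 87.1% (86.6 to 87.5) in YZ9, and 91.3% (91.0 to 91.6) and 92.9% (92.7 to 93.0) in controls. These intervals cover counting error only, and the widest rests on 71 counts. Alpha-like counts were those of Hba-x, Hba-a1 and Hba-a2, without Hbq1b. In YZ9 replicate 1 Hba-x had 62 counts and Hba-a1 had 9. The other ratios differed more between the YZ9 libraries, from 1.56-fold for Hbb-y over Gata1 to 20.9-fold for Hbb-y over Hba-a1. Hba-x over Gata1 differed 13.1-fold there. Alpha-like counts made up 16.7% and 60.8% of alpha-like and beta-like counts in YZ9, 43.9% and 41.3% in PD, and 63.9% and 69.7% in controls.

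Beta-like counts were those of Hbb-y, Hbb-bh1, Hbb-bs, Hbb-bt and Hbb-bh2, without the pseudogene Hbb-bh0. Among them the share of Hbb-y was 26.6% and 12.1% in PD, 7.65% (5.10 to 10.9) and 2.87% in YZ9, and 25.2% and 28.5% in controls. Both YZ9 libraries were below the other 4, and 1 PD library was within the control range while the other was below it. The count of Hbb-y over that of Gata1 was 11.2 and 6.47 in PD, 1.29 and 0.822 in YZ9, and 10.1 and 16.4 in controls. Per Gata1 count, Hbb-y was thus lower in both YZ9 libraries than in any other library. Per Hba-a1 count this did not hold: the count of Hbb-y over that of Hba-a1 was 2.01 and 0.986 in PD, 3.00 and 0.144 in YZ9, and 1.64 and 1.75 in controls, so the YZ9 libraries held both the highest and the lowest value, the highest resting on 9 Hba-a1 counts. The count of Klf1 over that of Gata1 overlapped between all groups, at 0.426 and 0.987 in PD, 0.429 and 1.18 in YZ9, and 0.741 and 0.844 in controls. Alas2 over Gata1 was 0.402 and 1.11 in PD, 0.619 and 0.386 in YZ9, and 1.11 and 1.18 in controls.

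**Figure D4:**
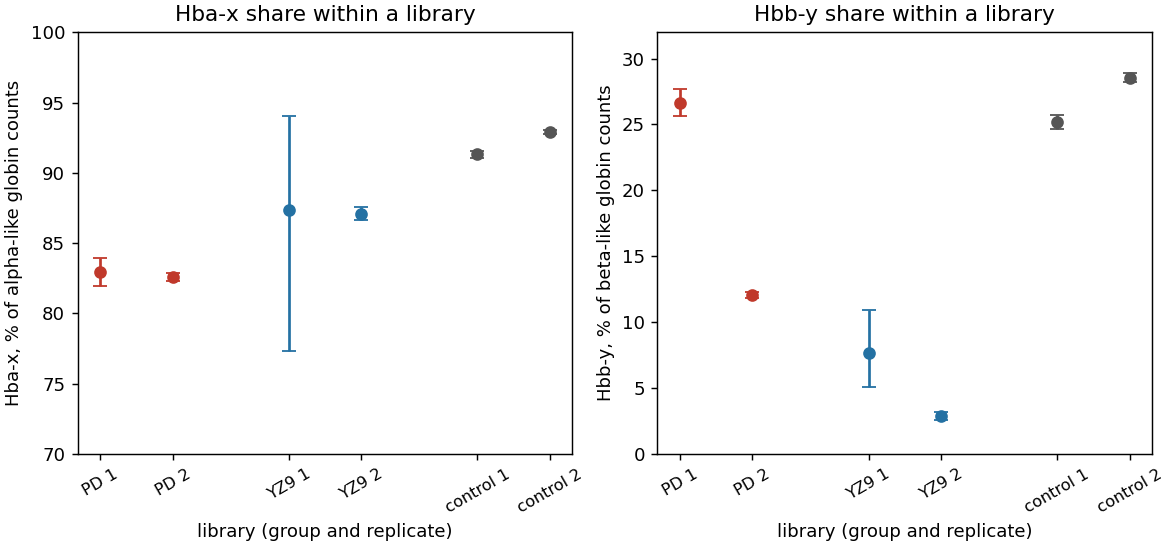
Share of Hba-x in alpha-like globin counts (left, axis from 70%) and of Hbb-y in beta-like globin counts (right) in each library, in percent, with 95% exact binomial intervals as bars. Hba-x shares are near 83% in PD, 87% in YZ9 and 91.3% and 92.9% in controls, and Hbb-y shares are lowest in the YZ9 libraries. Hbq1b and Hbb-bh0 are left out of the counts.

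Hbb-bs and Hbb-bh0 were also higher in replicate 2 of every group. Hbb-bs, an adult beta globin gene, had 201 and 1922 counts in PD, 4 and 193 counts in YZ9, and 566 and 1417 counts in controls. Hbb-bh0, a beta-like pseudogene, had 69 and 1531 counts in PD, 4 and 305 counts in YZ9, and 1166 and 2842 counts in controls. Hbb-bt, Hbb-bh2, Hba-a2 and Hbq1b had at most 61 counts in any library. All 9 haemoglobin genes tested, members included, had both YZ9 libraries below both controls, where 24.5% of all genes did. Of these, Hba-a2 had 0 and 3 counts and Hbb-bt 2 and 0 counts in YZ9. By edgeR 0 passed in any comparison, where at most 0.122% of all genes did. At an unadjusted p under 0.05 there were 0 in PD against control, 1 in YZ9 against control and 3 in PD against YZ9. The shares of all genes were 10.8%, 11.3% and 11.5%. Hbb-bs and Hbb-bt share most of their sequence, so their split is uncertain.

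The wider red-cell programme was described with 4 gene lists, leaving out the members. Of 83 genes tested, 0 passed an adjusted p of 0.05 in any of the 3 comparisons by edgeR, where at most 0.122% of all genes did. In PD against control 7, in YZ9 against control 11 and in PD against YZ9 13 had an unadjusted p under 0.05. For all genes these shares were 10.8%, 11.3% and 11.5%. In YZ9 against control 64 had negative and 19 positive log2 fold changes, with a median of -0.44, where 49.8% of all genes were negative. For 33 genes (39.8%) both YZ9 libraries lay below both controls, where 24.5% of all genes showed this. In PD against control 42 were negative and 41 positive, with a median of -0.01, where 49.5% of all genes were negative. Replicate 2 was higher for 65 of the 83 (78.3%) in PD, 54 (65.1%) in YZ9 and 59 (71.1%) in controls. Of all genes 50.2%, 49.5% and 49.9% were higher there.

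By role the lists were taken whole, with the members in them. The 27 tested genes of the red-cell membrane and enzymes, Slc4a1 included, had a median log2 fold change of -1.26 in YZ9 against control and 0.12 in PD against control. Tmod1, a cap protein of the membrane skeleton, had 17.1 and 19.95 CPM in PD, 13.9 and 11.96 CPM in YZ9, and 32.9 and 29.6 CPM in controls, and its log2 value in YZ9 was -1.27 (SE 0.22, adjusted p = 0.175 by edgeR). Slc2a1, the glucose transporter GLUT1, which is not specific to red cells, had 3119 and 6281 CPM in PD, 2502 and 3348 CPM in YZ9, and 2067 and 1168 CPM in controls. Both inhibitor groups lay above control for it, with log2 fold changes of 1.54 in PD (adjusted p = 0.228 by edgeR) and 0.86 in YZ9 (adjusted p = 0.472). Xk, a membrane protein that carries a blood group antigen, had -1.26 in YZ9 (adjusted p = 0.390 by edgeR).

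The 25 haem and iron genes, Alas2 included, had medians of 0.15 in PD and -0.28 in YZ9 against control. Slc40a1, the iron exporter ferroportin, had 36.6 and 64.7 CPM in PD, 14.6 and 16.5 CPM in YZ9, and 17.3 and 18.2 CPM in controls (log2 fold change in PD 1.51, SE 0.30, adjusted p = 0.157 by edgeR). Both PD libraries thus lay above the other 4. Ppox, an enzyme of haem synthesis, had a log2 fold change of 0.80 in PD, and Slc25a39, a mitochondrial carrier, had 0.65 in YZ9. Abcg2, a porphyrin exporter, had -0.98 in YZ9.

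Among the 31 tested regulators and receptors, with Gata1, Klf1 and Epor included, the medians were -0.12 in PD and -0.36 in YZ9 against control. Lyl1, a relative of the blood factor TAL1, had 7.18 and 7.36 CPM in PD, 3.85 and 3.88 CPM in YZ9, and 11.5 and 12.3 CPM in controls (log2 fold change in YZ9 -1.62, SE 0.27, adjusted p = 0.171 by edgeR). Unlike the members, its 2 libraries lay close together in every group. Lin28b, an RNA-binding protein of embryonic cells, had -1.07 in PD.

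Markers of other cell types were read beside the members. The summed megakaryocyte list (14 genes) was 59.9 and 52.0 CPM in PD, 42.5 and 26.4 CPM in YZ9, and 136 and 167 CPM in controls. Both YZ9 libraries lay below both controls for 13 of the 14 genes, where 24.5% of all genes did. Both PD libraries did for 9, where 19.5% of all genes did, and 0 genes lay above both controls. By edgeR 11 in YZ9 and 7 in PD had an unadjusted p under 0.05 against control, where 11.3% and 10.8% of all genes did. Gp5 and Treml1 had 0 counts in both YZ9 libraries. Tubb1, the tubulin of platelets, passed an adjusted p of 0.05 in all 3 comparisons, where at most 0.122% of all genes passed. Tubb1 had 2.54 and 2.49 CPM in PD, 0.269 and 0.303 CPM in YZ9, and 17.3 and 20.8 CPM in controls, with a log2 fold change of -2.92 in PD (adjusted p = 0.0463 by edgeR) and -6.03 in YZ9 (adjusted p = 0.0193). It fell in both, and PD lay above YZ9 (adjusted p = 0.0488), while its 2 libraries differed 1.02-fold in PD, 1.13-fold in YZ9 and 1.202-fold in controls. With either control left out none of these Tubb1 calls held. With either YZ9 library left out the Tubb1 call in YZ9 against control did not hold. The count of megakaryocyte markers higher in replicate 2 was 3 of 14 in PD, 6 of 14 in YZ9 and 11 of 14 in controls. The shares of all genes were 50.2%, 49.5% and 49.9%.

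The macrophage and white-cell list, of which 10 of 13 genes were tested, summed to 32.04 and 12.8 CPM in PD, 8.32 and 7.41 CPM in YZ9, and 26.5 and 42.6 CPM in controls, with Ptprc, the pan-leukocyte gene, at no more than 16 counts. All 10 had negative log2 fold changes in YZ9 against control, with a median of -2.23, near the members' -2.31. Both YZ9 libraries lay below both controls for all 10, where 24.5% of all genes did. Cx3cr1 had 1 count in each YZ9 library. In PD against control 8 of the 10 were negative and 2 positive, with a median of -0.66. Both PD libraries lay below both controls for 3 of these, where 19.5% of all genes did. Endothelial markers (18 genes) summed to between 503 and 622 CPM in all libraries. In PD against control 14 of them were negative and 4 positive, with a median of -0.48. Both PD libraries lay below both controls for 9 and above both for 2, where 19.5% and 19.2% of all genes did. In YZ9 against control 10 were negative and 8 positive. The endothelial sum thus does not describe its single genes. Visceral endoderm markers (11 of 18 tested) summed to between 216 and 325 CPM, most of it from Dab2, an endocytic adaptor gene, with 4053 to 8191 counts, and Hnf4a had 0 counts throughout. Within that list Afp, the alpha-fetoprotein gene, had 892 and 143 counts in PD, 7 and 53 in YZ9, and 24 and 15 in controls (log2 fold change in PD 4.76, adjusted p = 0.190 by edgeR). Foxa2, an endoderm transcription factor, had 169 and 79 counts in PD, 23 and 28 in YZ9, and 0 and 4 in controls (log2 fold change in PD 5.92, adjusted p = 0.127 by edgeR). Ttr and Rbp4, carrier protein genes, had log2 fold changes of 3.13 and 2.52 in PD. In PD against control 9 of the 11 tested genes were positive, with a median of 1.91, so the sum does not describe the single genes. Mesoderm markers summed to between 1511 and 2208 CPM. Of these 4 lists 0 genes passed in any comparison by edgeR, where at most 0.122% of all genes did. In YZ9 against control 4, 7, 3 and 1 genes of the macrophage, endothelial, visceral endoderm and mesoderm lists had an unadjusted p under 0.05. The share of all genes was 11.3%. In PD against control 2, 5, 5 and 4 genes of these lists had one, where 10.8% of all genes did. The members' sum, by comparison, differed 314-fold between its highest and lowest library. The part of these other cell types in the members' levels was not tested.

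**Figure D5:**
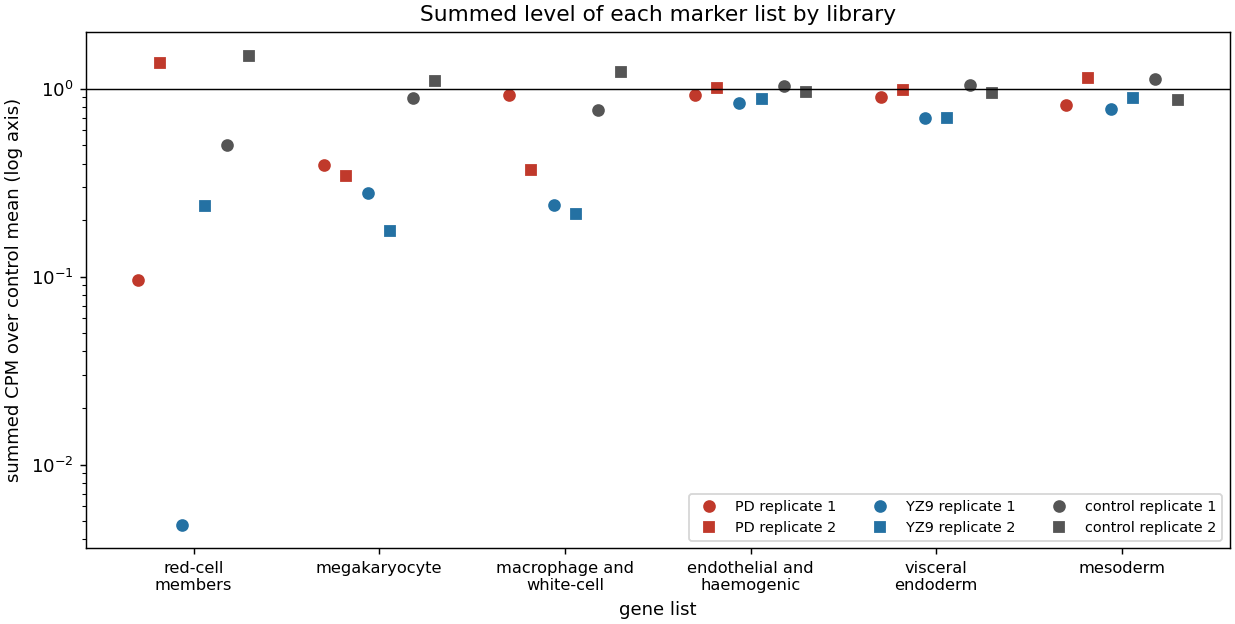
Summed CPM of the 9 red-cell genes and of 5 marker lists in each library, divided by the mean of the 2 controls, on a log axis. Circles are replicate 1 and squares replicate 2. The red-cell genes spread 314-fold between libraries, the endothelial list 1.24-fold and the mesoderm list 1.46-fold. A level sum does not mean that the single genes of a list were level.

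Genes whose level followed the summed embryonic globins most closely over the 6 libraries were ranked by Pearson's r of log2 CPM among 11688 genes with a mean count of at least 50. The libraries share their depth range and their 3 groups, and r is given as a description. The leading gene was Bfar, an apoptosis regulator, with r = 0.993, though its level only moved between 52.1 and 59.4 CPM. Nfe2, a red-cell and megakaryocyte transcription factor, followed with r = 0.990 and had 16.3 and 78.2 CPM in PD, 3.09 and 20.4 CPM in YZ9, and 34.8 and 70.4 CPM in controls. Gypc (0.982), a red-cell membrane glycoprotein, and E2f2 (0.984), a cell cycle factor, came from the same red-cell lists. Zfp979 (0.988), Rad18 (0.984) and Snhg18 (0.980) were also among the leading genes. Among the members r was between 0.812 for Epor and 0.996 for Hba-a1, with the 3 summed globins themselves contained in the sum.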

How the data were processed

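Polyadenylated RNA of 6 explant libraries (PD, YZ9 and control, 2 each) was sequenced after low-input, unstranded library preparation, per the labels' protocols. The submitters' processing notes name CASAVA 1.8.2, STAR 2.7.9a, DESeq2 1.40.1 and the build GRCm38, while the counting tool is not given in the sources used here, nor is the annotation release. The deposited values used were whole-number counts per gene and library, in 2 tables of 46078 genes with identical control counts, which were joined. The deposited normalized columns are a signal, each count divided by 1 size factor per library, and the log2 fold change, its SE, the test score and the p-value columns are the authors' DESeq2 output, quoted only where named. Rows without a gene symbol (4282) were not members.

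The counts were filtered with filterByExpr (minimum count 10, minimum total 15; 15568 genes left), TMM-scaled and fitted by edgeR 4.0.16 quasi-likelihood in R 4.3.3, with all 6 libraries in 1 fit, 3 residual degrees of freedom, two-sided tests and Benjamini-Hochberg adjustment over all genes (threshold 0.05). SE is the size of the log2 value divided by the root of its F statistic. Differences between libraries on the log2 scale used a prior count of 2. Alternatives used limma 3.58.1 (limma-trend, prior count 3) and DESeq2 1.42.0. The main edgeR fit was tried on counts simulated for PD against control, and the alternative fits were not. Positions and exon lengths are from GENCODE M21. Sex was read from Xist and Y-linked counts. Total counts are given in the report. The spread between libraries limits the precision, and so does depth where counts are few. In YZ9 replicate 1 Hba-a1, Klf1, Alas2 and Slc4a1 had 9, 9, 13 and 0 counts. Named genes are the members, all haemoglobin genes with a count, from each red-cell or marker list those past the threshold or otherwise the 2 of smallest p against control for each inhibitor, and the 8 most correlated genes. Not every gene the rule takes is reported here. Apex2, Bmp4, Hand1, Msgn1, Mesp1, Mesp2, T, Tbx6, Ptprc, Hnf4a, Dab2, Afp, Ttr and Rbp4 were named after their values were seen or as defining markers. The members, lists, ratios and tests were chosen with earlier results of these data known.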

Additional observations from a re-analysis of the deposited data

How the results depend on the processing

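The number of the 9 genes past the threshold was 0 in all 3 comparisons with edgeR and stayed 0 with DESeq2 size factors, no TMM scaling, a mean count of at least 50, limma-trend, the 4 libraries of a comparison alone, and each library left out. It was 2 in YZ9 against control and 3 in PD against YZ9 without the filter on low counts, and 1 and 1 with DESeq2. With sex as a covariate it was 1 in PD against control, 5 in YZ9 against control and 4 in PD against YZ9. In the male libraries alone it was 7, 7 and 4 in the same order. The fits differ in the genes tested, the samples, the terms or, for DESeq2, the test. Under other scalings, or with all haemoglobin genes in the sum, the mean summed globin level was 3297 to 3715 CPM in PD, 550.1 to 608 CPM in YZ9 and 4652 to 5173 CPM in control, against main values of 3371, 552 and 4799 CPM. With 1 library left out it was 439.98 or 6303 CPM in PD, 18.3 or 1085 CPM in YZ9 and 2370.0 or 7227 CPM in control, which are the values of the library that remains, and none of these group means holds within 1.5 times.

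The replicate number was tried as a block. Deviations of same-numbered libraries correlated at -0.0961 between PD and control, 0.149 between YZ9 and control and 0.346 between PD and YZ9. In PD and YZ9 replicate 2 was also the female library, so these values cannot tell whether the numbers pair the samples. With the block 0 members passed in every comparison, and over all genes 1, 3 and 12 passed in PD against control, YZ9 against control and PD against YZ9, where 15, 1 and 19 passed without it.

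In PD against control, log2 fold changes that were positive turned negative under several settings. They were -0.34 (limma-trend), -0.71 (block), -2.75 (sex covariate) and -2.57 (male libraries) for Hbb-bh1, -0.79, -1.21, -3.37 and -2.85 for Hba-a1, and -0.45, -0.68, -2.40 and -2.28 for Gata1. They were -0.72, -1.09, -3.36 and -3.20 for Klf1, and -1.21, -1.23, -3.45 and -3.80 for Alas2. For Epor they were -0.037 (block), -0.86 (sex covariate) and -0.93 (male libraries). Leaving out 1 library gave -2.63 to 0.28 for Hbb-y, -2.57 to 1.62 for Hbb-bh1, -2.85 to 0.93 for Hba-a1, -2.28 to 1.25 for Gata1, -3.20 to 1.54 for Klf1, -3.80 to 1.19 for Alas2, -8.15 to 0.059 for Slc4a1 and -0.93 to 0.97 for Epor. In YZ9 against control it gave -1.22 to 0.41 for Epor, and no other member changed sign under any setting tried. In PD against YZ9 it gave -0.27 to 6.99 for Hbb-bh1, -0.85 to 8.81 for Hba-x, -0.38 to 9.33 for Hba-a1, -0.42 to 5.42 for Gata1, -1.84 to 6.54 for Klf1, -0.42 to 6.17 for Alas2, -6.30 to 7.15 for Slc4a1 and -0.74 to 1.53 for Epor. Hbb-y stayed between 3.28 and 7.83 there. The cause was not tested. A fit with 1 library in a group takes it to vary as the other groups do.

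Over all genes, 15 passed in PD against control, 1 in YZ9 against control and 19 in PD against YZ9, and the alternatives gave 0 to 712, 0 to 556 and 0 to 601. Without TMM scaling the median log2 fold change of all genes moved to 0.12 in YZ9 against control and -0.13 in PD against YZ9, and the 9 members kept their signs. Slc4a1 was near the detection limit of these depths, and the wide spread between libraries limits every group comparison here.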
